A study of Mus musculus with 12 samples.

Results

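The irradiation effect in the hippocampus was compared with that in the cortex, gene by gene, in the brains of male C57BL/6 mice. The quantity compared was the interaction, that is, the effect in the hippocampus (IR minus Con) minus the effect in the cortex (IR minus Con), on the scale of log2(FPKM + 1). A value of -1 on this scale means that the ratio of IR to Con was lower in the hippocampus by a factor of 2, apart from the pseudocount of 1, which shrinks the differences of low genes. All 12 RNA-seq libraries of the series were used by their labels, 3 of cortex Con, 3 of cortex IR, 3 of hippocampus Con and 3 of hippocampus IR. The mice were bought at 7 weeks of age, kept for 1 week, and then given a single dose of 10 Gy to the whole brain (IR) or a sham exposure (Con), and RNA was taken 3 months later. All groups share strain, sex, age and the time to sampling. FPKM (fragment counts scaled by transcript length and by the mapped fragments of the library) was listed for 23183 genes, and 14577 of them, which reached 0.5 FPKM in 3 or more of the 12 libraries, were tested. No source used here states whether the cortex and the hippocampus libraries came from the same mice, and nothing says that libraries of a group came from separate mice, so the p values cover the spread between these libraries.

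The labelled regions were checked against marker genes. The 24 listed genes of cortical layer neurons summed to between 478 and 507 FPKM in the cortex libraries and to between 401 and 430 FPKM in the hippocampus libraries, and the 17 of dentate granule cells to between 131 and 152 FPKM and between 280 and 329.7 FPKM. *Il16*, used here as a marker of dentate granule cells, was between 0.426 and 0.555 FPKM in the cortex and between 9.08 and 14.2 FPKM in the hippocampus. Judged from the low values of the files, libraries were 1 to 1.13 times as deep as Con 1 of the same region, the depth in reads being unknown. In the hippocampus this was 1, 1.02 and 1.07 in Con and 1.13, 1.09 and 1.09 in IR, against at most 1.05 in the cortex. Genes above 0 numbered 17191, 17093 and 17380 in hippocampus Con and 17533, 17428 and 17365 in hippocampus IR. Depth thus went with irradiation in the hippocampus, and its part in any interaction was not tested. Library Con 3 of the hippocampus stood apart, with the lowest weight (0.367) when limma weighted the libraries by their fit to the group. Con 1 had the lowest level of several genes induced by neuronal activity in both regions, and IR 1 had the highest level of several chaperone genes in both regions. The cortex and the hippocampus files have different endings in their column names, and whether they were processed separately is not given. The interaction compares effects that were each measured within a region. In tissue RNA, fewer cells of a type and less RNA per cell cannot be told apart.

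Neurons that fire send calcium and ERK signals to the nucleus, where they switch on immediate early genes, most of them transcription factors of the EGR, FOS and NR4A families. These in turn, with the factor CREB, drive genes whose products act at synapses, such as *Arc*, *Homer1* and *Bdnf*, and genes such as the sprouty, spred and dual-specificity phosphatase families, which damp ERK signaling again. The molecular clock runs in the same cells through activators (CLOCK and BMAL1) and repressors (PER and CRY), with outputs such as DBP. Radiation damage acts through p53, whose best known target, *Cdkn1a*, encodes p21, an inhibitor of the cell cycle, and it is known to deplete or alter microglia, which depend on the receptor CSF1R and its ligands CSF1 and IL-34.

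Most genes had an irradiation effect that was small and close in both regions. The median interaction was -0.01, and 90% of genes lay between -0.33 and 0.31. The 95% interval of the interaction reached 0.28 to either side at the median and was inside a 1.5-fold difference in either direction for 11661 genes (80%). The interaction had an adjusted p under 0.05 (limma, Benjamini-Hochberg over all genes tested) for 12 genes (0.0823% of those tested), with the effect lower in the hippocampus for 10 (0.0686%) and higher there for 2 (0.0137%). An unadjusted p under 0.05 was found for 1500 genes (10.3%), 813 lower in the hippocampus (5.58%) and 687 higher (4.71%). Without hippocampus Con 3 the number of genes with an adjusted p under 0.05 was 479, 361 lower and 118 higher, and it was 0 without cortex Con 1, without each of the 3 cortex IR libraries, or without hippocampus IR 1 or IR 2. It was 1 without cortex Con 3 or hippocampus Con 2, 6 without cortex Con 2, 7 without hippocampus Con 1 and 11 without hippocampus IR 3. These counts are over all genes tested. Of the 12 genes, 0 were among them without cortex Con 3, 1 without hippocampus Con 2, 5 without cortex Con 2, 7 without hippocampus Con 1 and 8 without hippocampus IR 3. The number with an unadjusted p under 0.05 was between 1078 and 2885 in these fits. The 12 genes kept their direction and an unadjusted p under 0.05 in each of these fits. With all libraries kept, the number with an adjusted p under 0.05 was also 0 with no trend or robust prior. The same held with replicate numbers added to the model as a block, by mouse or by number. Words such as lower and higher in the hippocampus refer below to the irradiation effect, unless a level in FPKM is given.

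In the fit of all 12 libraries, 78 genes (0.535%) had an adjusted p under 0.05 in the cortex, against 73 (0.501%) in the hippocampus, 8 of them in both (0.0549%). With 1 library left out, the cortex count was between 25, without cortex IR 1, and 102, and the hippocampus count between 5, without cortex IR 3 or hippocampus IR 1, and 1792. The counts of 102 and 1792 are both from the fit without hippocampus Con 3. By direction, 0.439% of genes rose and 0.096% fell in the cortex, and 0.343% rose and 0.158% fell in the hippocampus. The Con and IR libraries did not overlap for 20% of genes in the cortex and for 19.6% of those in the hippocampus. Of the 70 genes found in the cortex only, 11 had an adjusted and 59 an unadjusted interaction p under 0.05, and for 19 the interval of the interaction was inside 1.5-fold. Of the 65 genes found in the hippocampus only, 1 had an adjusted and 52 an unadjusted interaction p under 0.05, and the interval was inside 1.5-fold for 29. The effect had the same sign in the other region for 47 of the 70 and for 49 of the 65. Both sets were chosen by the effects that form the interaction, so small interaction p values among them are favored in advance and are no separate support. The effect averaged over both regions had an adjusted p under 0.05 for 282 genes (1.93%), with the same sign in both regions for 276 of them. Choosing genes by the average favors the same sign. For 211 genes (1.45%), 145 upregulated (0.995%) and 66 downregulated (0.453%), the interval of the interaction was also inside 1.5-fold, and these are called alike below. The bound is wider than some averaged effects, so a gene that moved mainly in the cortex or mainly in the hippocampus can count as alike. With 1 library left out, between 14 genes, without cortex IR 1, and 897, without hippocampus Con 3, were alike. Among alike genes named below, *Cdkn1a*, *Dbp*, *Nfil3*, *Otub2*, *Plat*, *Sgsm1* and *Usp2* kept an adjusted p under 0.05 for the averaged effect with each library left out. *Adam8*, *Cfp*, *Bhlhe41* and the heat shock, microglia and endothelial genes named as alike lost it in 2 to 11 of the 12 fits (*Hspa8* and *Hsf1* in 11, *Cryab* in 9). Across all genes tested the effects in the cortex and the hippocampus had a Pearson correlation of 0.21, which describes genes of the same 12 libraries and carries no test.

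**Figure D1:**
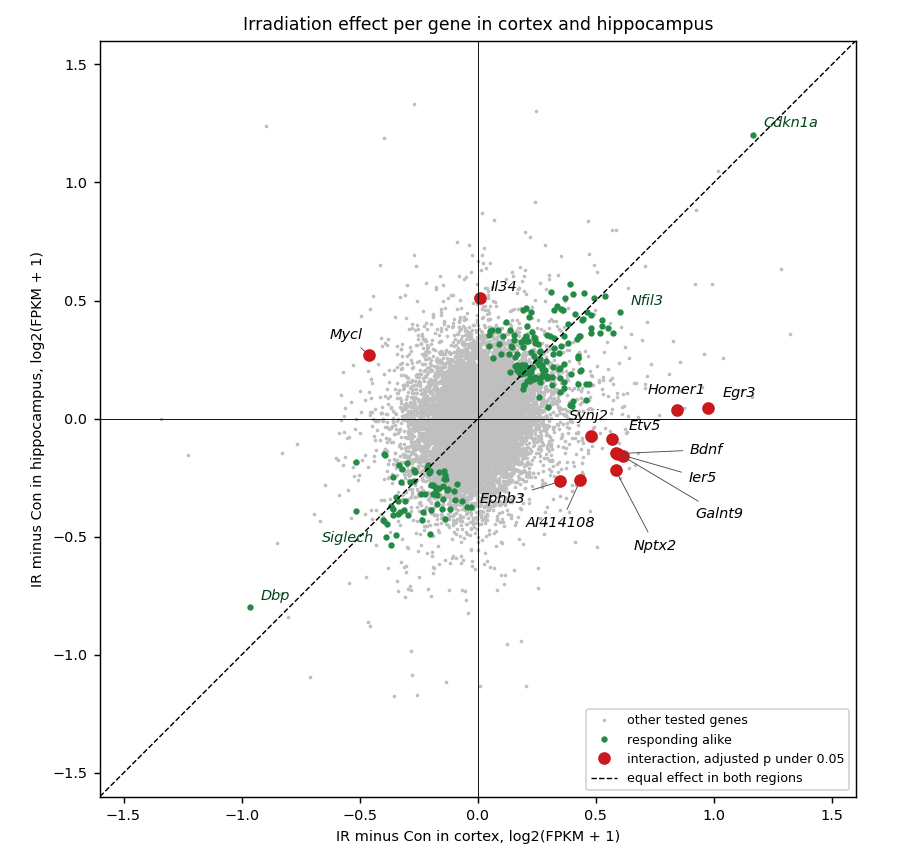
Irradiation effect of each tested gene in the cortex (x axis) and the hippocampus (y axis), both as IR minus Con of log2(FPKM + 1), with genes responding alike in green, the 12 genes with an adjusted interaction p under 0.05 in red, other genes in grey and a dashed line where both effects are equal. Of the red points, 10 lie right of and below the line, while *Il34* and *Mycl* lie above it, and 11 genes lie outside the plotted range of 1.6 on either side of 0.

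Among the 12 genes, 4 encode transcription regulators. *Egr3*, an immediate early gene, was 34.2, 35.7 and 37.8 FPKM in cortex Con and 75.1, 66.8 and 72.9 FPKM in cortex IR. Hippocampal values were 32.1, 39.04 and 31.4 FPKM in Con and 33.2, 34.7 and 37.6 FPKM in IR. The cortex IR libraries were all above the other 9, whose ranges overlapped, and the interaction was -0.93 (95% interval -1.18 to -0.67, adjusted p = 0.0299, limma). *Ier5*, an immediate early gene linked to the heat shock factor HSF1, was 31.9, 28.1 and 32.5 FPKM in cortex Con and 47.2, 44.9 and 47.99 FPKM in cortex IR. Its hippocampal level was lower than either, 12.9, 11.1 and 11.8 FPKM in Con and 10.2, 9.803 and 12.1 FPKM in IR. *Ier5* rose by 0.59 on the log2 scale in the cortex, where the groups were separate, and the hippocampal difference was -0.15 with overlap (interaction -0.73, adjusted p = 0.0364). *Etv5*, an ETS factor gene induced downstream of ERK, was 26.5, 30.01 and 26.4 FPKM in cortex Con and 41.6, 42.2 and 40.6 FPKM in cortex IR. In the hippocampus *Etv5* was 18.1, 18.3 and 21.9 FPKM in Con and 18.4, 17.7 and 18.5 FPKM in IR, with overlapping libraries (interaction -0.65, adjusted p = 0.0364). *Mycl*, a member of the MYC family, ran the other way. It was 3.36, 3.71 and 4.002 FPKM in cortex Con and 2.38, 2.37 and 2.47 FPKM in cortex IR, a log2 difference of -0.46 (adjusted p = 0.00893, limma) without overlap. In the hippocampus *Mycl* stood at 12.7, 12.04 and 11.3 FPKM in Con and 15.2, 14.4 and 14.5 FPKM in IR, a log2 difference of 0.27 (adjusted p = 0.0931) and no overlap. Its interaction was 0.73 (95% interval 0.52 to 0.94, adjusted p = 0.0299).

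A further 5 of the 12 genes act at synapses or in signaling between neurons. *Homer1*, whose protein scaffolds glutamate receptors in the postsynaptic density, was 30.1, 26.2 and 30.1 FPKM in cortex Con and 59.4, 48.96 and 49.3 FPKM in cortex IR. The hippocampal libraries of *Homer1* overlapped at 20.6, 21.95 and 23.9 FPKM in Con and 22.7, 21.7 and 23.8 FPKM in IR (interaction -0.81, adjusted p = 0.0303). Short and long isoforms of *Homer1*, of which the short is the activity-induced form, are not told apart by gene-level FPKM. *Nptx2*, a secreted pentraxin that clusters AMPA receptors, was 19.3, 21.8 and 16.4 FPKM in cortex Con and 28.9, 28.4 and 29.8 FPKM in cortex IR. In the hippocampus its Con libraries were 12.2, 13.4 and 13.7 FPKM and its IR libraries 11.5, 10.96 and 10.8 FPKM. Con and IR of *Nptx2* were thus separate in both regions, IR being higher in the cortex and lower in the hippocampus, where the difference of -0.22 had an adjusted p of 0.194 from limma. *Bdnf*, the gene of brain-derived neurotrophic factor, was 4.88, 5.195 and 5.299 FPKM in cortex Con and 8.03, 7.801 and 8.89 FPKM in cortex IR. In the hippocampus, where its level was higher, *Bdnf* was 11.7, 13.6 and 12.3 FPKM in Con and 10.4, 11.8 and 11.4 FPKM in IR (interaction -0.74, adjusted p = 0.0299). *Synj2*, which encodes an inositol phosphatase of vesicle trafficking, was 16.9, 18.3 and 17.03 FPKM in cortex Con and 25.4, 23.8 and 24.7 FPKM in cortex IR. Its hippocampal values of 15.8, 14.9 and 16.5 FPKM in Con and 14.4, 14.9 and 15.4 FPKM in IR overlapped (interaction -0.55, adjusted p = 0.0303). *Ephb3*, a receptor for ephrin-B ligands, was 8.25, 7.82 and 7.87 FPKM in cortex Con and 10.7, 10.1 and 10.6 FPKM in cortex IR. The hippocampus gave 7.596, 6.81 and 6.25 FPKM in Con and 5.49, 5.38 and 5.77 FPKM in IR, so that the libraries were separate in opposite directions (interaction -0.62, adjusted p = 0.0364). Over all tested genes, 128 (0.878%) were separate in opposite directions in the cortex and the hippocampus, and 561 (3.85%) in the same direction.

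*Galnt9*, a glycosyltransferase that starts mucin-type O-glycans, was 27.9, 31.1 and 27.9 FPKM in cortex Con and 49.9, 42.1 and 42.8 FPKM in cortex IR. Its hippocampal libraries were 36.8, 31.97 and 38.5 FPKM in Con and 29.6, 31.5 and 34.5 FPKM in IR, which overlapped (interaction -0.77, adjusted p = 0.0364). *AI414108*, an uncharacterized transcript, was 16.1, 15.3 and 15.1 FPKM in cortex Con and 21.1, 21.7 and 20.99 FPKM in cortex IR. Its hippocampal libraries were 6.26, 5.93 and 5.67 FPKM in Con and 4.92, 4.29 and 5.21 FPKM in IR, with the opposite order and no overlap (interaction -0.69, adjusted p = 0.0299). *Il34*, which encodes a neuronal ligand of the microglial receptor CSF1R, was the only one of the 12 that changed in the hippocampus and not in the cortex by the threshold used. Its cortex libraries overlapped at 26.02, 27.1 and 25.5 FPKM in Con and 27.1, 25.4 and 26.5 FPKM in IR. The hippocampal libraries rose from 15.95, 15.9 and 17.5 FPKM in Con to 23.8, 23.4 and 24.5 FPKM in IR, close to the cortex level (0.51 on the log2 scale, adjusted p = 0.00175, limma). The interaction for *Il34* was 0.50 (95% interval 0.33 to 0.67, adjusted p = 0.0364). The genes nearest to the threshold from outside were *Fmnl1* (interaction -0.54, adjusted p = 0.0531), *Man1a* (-0.76, 0.0568) and *Spry2* (-0.67, 0.0568), of which *Fmnl1* was chosen after its values were seen.

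**Figure D2:**
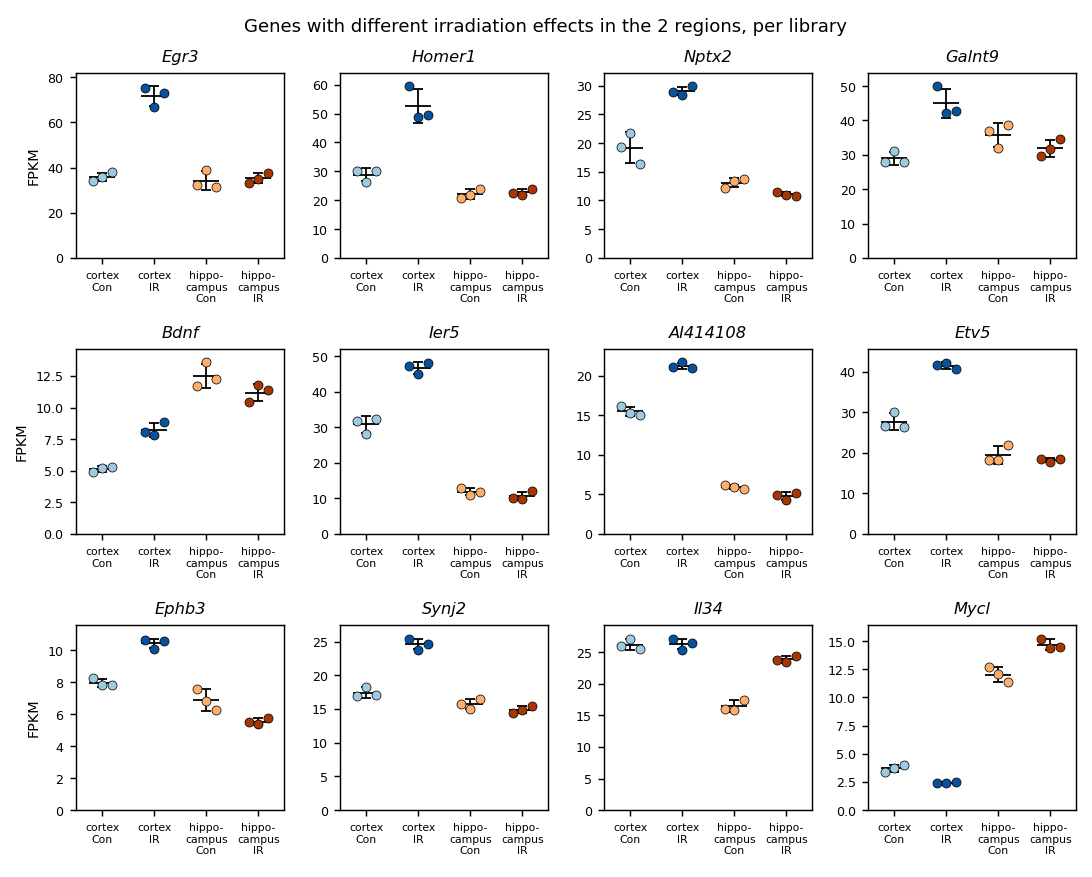
FPKM of the 12 genes with an adjusted interaction p under 0.05, with a point for each library (light blue, cortex Con; dark blue, cortex IR; light orange, hippocampus Con; brown, hippocampus IR) and a line with bars for the mean and SD of the 3 libraries of a group. Cortex IR lies above cortex Con for all but *Il34* and *Mycl*, and hippocampal Con and IR are near each other for *Egr3*, *Homer1*, *Synj2* and *Etv5*.

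Genes for the transcription factors that neuronal activity induces had a larger median effect in the cortex. This list and those below were chosen with earlier results of these data known, so their shares describe the listed genes and are no independent test. Of 23 tested, 11 had an unadjusted interaction p under 0.05, all lower in the hippocampus, against 5.58% of all genes, and 2 of them, *Egr3* and *Ier5*, had an adjusted p under 0.05. The interaction was below 0 for 21 of the 23, and its median was -0.52, against -0.01 over all genes tested. The median effect was 0.59 in the cortex against 0.09 in the hippocampus. In the cortex 6 of the 23 rose by an adjusted p under 0.05 (limma), against 0.439% of all genes, and 17 had an unadjusted p under 0.05, all upward, against 6.81%. In the hippocampus both counts were 0 in either direction, against 8.95% up and 9.68% down over all genes by an unadjusted p. *Nab2*, a corepressor that EGR factors induce, was 14.4, 17.1 and 18.8 FPKM in cortex Con and 22.7, 22.7 and 26.2 FPKM in cortex IR. Levels in the hippocampus were 22.2, 20.9 and 20.04 FPKM in Con and 19.4, 20.3 and 22.03 FPKM in IR (interaction -0.53, unadjusted p = 0.001298 from limma). *Egr1*, *Nr4a1*, *Nr4a3* and *Fosb* were chosen after their values were seen. *Egr1* was 49.9, 93.3 and 96.9 FPKM in cortex Con and 152, 161 and 193 FPKM in cortex IR, Con 1 being the lowest. It was 25.3, 37.2 and 35.3 FPKM in hippocampus Con and 27.6, 32.4 and 48.1 FPKM in hippocampus IR, with overlap (interaction -0.998, adjusted p = 0.435). *Nr4a3*, an orphan nuclear receptor gene, was 3.07, 4.91 and 6.02 FPKM in cortex Con and 7.76, 8.73 and 10.9 FPKM in cortex IR. Its hippocampal level was higher, at 23.2, 26.4 and 24.6 FPKM in Con and 24.9, 27.5 and 28.1 FPKM in IR (interaction -0.75, adjusted p = 0.333).

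Not every gene of this class separated the regions. *Fos*, which the study also tested by qRT-PCR, was 4.58, 14.8 and 14.4 FPKM in cortex Con and 22.7, 22.4 and 34.1 FPKM in cortex IR. In the hippocampus it was 1.34, 2.87 and 3.19 FPKM in Con and 4.03, 3.46 and 5.31 FPKM in IR, without overlap in the same direction. The interaction for *Fos* was -0.65 with an interval of -1.92 to 0.63, which leaves a difference in either direction possible. *Nr4a1* had an interaction of -1.07 with an interval of -2.298 to 0.16, whereas that of *Fosb*, -0.76, had an interval of -1.31 to -0.20, which does not include 0. *Klf10*, a TGF-beta-induced repressor gene, had log2 effects of 0.62 in the cortex against 0.30 in the hippocampus (interval of the interaction -0.82 to 0.17). In cortex Con 1, *Egr1*, *Fos*, *Nr4a1* and *Arc* were between 4.58 and 49.9 FPKM, each below the other cortex libraries, and hippocampus Con 1 was the lowest hippocampal library for each of them. Without cortex Con 1 the median interaction of the 23 genes was -0.43 and 8 had an unadjusted p under 0.05, and across all 12 fits with a library left out the median was between -0.62 and -0.43, with 6 to 13 genes lower in the hippocampus by an unadjusted p (7 without hippocampus Con 3, IR 1 or IR 2). Without cortex IR 3, 6 were lower and 1 was higher.

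Of 24 genes of synaptic and secreted products of activity, 12 had an unadjusted interaction p under 0.05, all lower in the hippocampus, against 5.58% of all genes, and 3 (*Homer1*, *Nptx2* and *Bdnf*) an adjusted p under 0.05, against 0.0823%. The median interaction was -0.47, the median effect being 0.41 in the cortex against -0.10 in the hippocampus. By an unadjusted p, 13 rose and 0 fell in the cortex (limma), against 6.81% and 4.69% of all genes, and 1 rose and 4 fell in the hippocampus, against 8.95% and 9.68%. Without cortex Con 1 the median was -0.38, with 12 genes lower and 1 higher. *Arc*, whose protein removes AMPA receptors from synapses, was 26.4, 73.2 and 86.6 FPKM in cortex Con and 179, 162 and 192 FPKM in cortex IR. In the hippocampus *Arc* was 20.7, 35.6 and 40.7 FPKM in Con and 32.99, 38.1 and 58.6 FPKM in IR, and its interaction of -1.24 had an interval of -2.65 to 0.17, which includes 0. *Vgf*, the precursor of several neuropeptides, was 98.5, 126 and 91.6 FPKM in cortex Con and 151, 129.8 and 135 FPKM in cortex IR. It was 90.8, 82.1 and 83.5 FPKM in hippocampus Con and 71.7, 74.7 and 78.7 FPKM in hippocampus IR, the libraries again separate in opposite directions (interaction -0.59, unadjusted p = 0.00121 from limma). *Ptgs2*, the gene of cyclooxygenase-2, had an interaction of -0.57, *Trib1*, a pseudokinase gene, of -0.83, and *Plk3*, a polo-like kinase gene, of -0.65 (adjusted p = 0.184, 0.362 and 0.246). *Arc*, *Vgf*, *Ptgs2*, *Trib1* and *Plk3* were chosen after their values were seen.

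Promoter sequence is shown for the members of this group that hold the full cAMP response element, TGACGTCA, the site of CREB, in the 250 bases before a RefSeq gene start (GRCm38.p6). The element reads the same on both strands. A window was found for 17 of the 24 genes, and 5 of these 17 hold the element, which is present in 5 of their 24 windows (20.8%), against 358 of the 14088 windows of all tested genes (2.54%). It is in 1 of 25 windows of the transcription factor list (4%), in 3 of 21 of the ERK feedback list (14.3%) and in 1 of 28 of the clock list (3.57%). The stretches run 5′ to 3′ on the strand of the gene, with the element in capitals, and are shown because the 5 genes share it and differ in their values.
*Pcsk1* (chr13:75089768-75089797, plus strand): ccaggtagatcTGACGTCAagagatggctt
*Plk2* (chr13:110394971-110395000, plus strand): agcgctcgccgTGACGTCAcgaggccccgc
*Scg2* (chr1:79440076-79440105, minus strand): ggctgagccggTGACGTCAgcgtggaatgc
*Btg2* (chr1:134079303-134079332, minus strand): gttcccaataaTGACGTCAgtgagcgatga
*Arl4d* (chr11:101665504-101665533, plus strand): gccgcgtcgtgTGACGTCAcgagagggttt

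The 5 genes with this element did not share 1 response. *Pcsk1*, a protease that matures neuropeptide precursors, was 12.1, 10.9 and 11.7 FPKM in cortex Con and 15.6, 15.8 and 16.7 FPKM in cortex IR. Hippocampal values were 6.91, 4.71 and 6.69 FPKM in Con and 4.55, 5.56 and 4.96 FPKM in IR (interaction -0.67, unadjusted p = 0.000841 from limma). *Plk2*, a kinase gene that tunes synapses after activity, was 65.2, 65.3 and 67.96 FPKM in cortex Con and 68.2, 69.5 and 74.2 FPKM in cortex IR. It was 91.2, 84.8 and 82.6 FPKM in hippocampus Con and 60.6, 69.9 and 80.7 FPKM in hippocampus IR, separate upward in the cortex and downward in the hippocampus (interaction -0.39, unadjusted p = 0.00674). *Arl4d*, a small GTPase gene, had an interaction of -0.54 (interval -1.02 to -0.06). *Scg2*, a granin gene, had -0.22 (interval -0.60 to 0.15) and *Btg2*, an antiproliferative p53 target, 0.16 (interval -0.57 to 0.88), with both intervals including 0. All but *Plk2* were chosen for their promoters after values were seen. Of the 12 genes with an adjusted interaction p under 0.05, a window was found for 7 of the 10 lower in the hippocampus and 1 of the 2 higher there, and the element is in 0 of the 17 windows of the former and 0 of the 1 window of the latter. The presence of these letters is a description of the windows, and a window without them says nothing about CREB.

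Feedback regulators of ERK signaling also had a larger median effect in the cortex. Of 21 tested, 8 had an unadjusted interaction p under 0.05, all lower in the hippocampus, against 5.58% of all genes, and 1 (*Etv5*) an adjusted p under 0.05. The median effect was 0.35 in the cortex against 0.00 in the hippocampus, with a median interaction of -0.34. In the cortex 7 of the 21 rose by an adjusted p under 0.05, against 0.439% of all genes. *Spry2*, an ERK inhibitor of the sprouty family, was 20.9, 24.4 and 24.05 FPKM in cortex Con and 31.8, 30.1 and 27.1 FPKM in cortex IR. The hippocampus gave 22.2, 24.8 and 20.6 FPKM in Con and 16.9, 17.6 and 18.6 FPKM in IR, separate in the opposite direction. *Spred3*, of the related spred family, was 12.8, 13.9 and 11.9 FPKM in cortex Con and 18.8, 17.8 and 15.97 FPKM in cortex IR. It was 15.1, 14.9 and 17.4 FPKM in hippocampus Con and 13.8, 13.9 and 14.7 FPKM in hippocampus IR (interaction -0.56, unadjusted p = 0.000211 from limma). *Spred1* and *Spred2* had interactions of -0.39 and -0.52 (unadjusted p = 0.00322 and 0.000738). Among the dual-specificity phosphatases that remove phosphate from MAP kinases, *Dusp4* had an interaction of -0.67 (interval -1.06 to -0.28) and *Dusp6* of -0.62 (interval -0.996 to -0.25). *Spry4* had -0.34, with an interval of -0.70 to 0.02 that includes 0, and its libraries were separate upward in both regions. *Spred1*, *Spred2*, *Dusp4*, *Dusp6* and *Spry4* were chosen after their values were seen. Without cortex Con 1 the median interaction of the list was -0.22, with 7 genes lower.

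**Figure D3:**
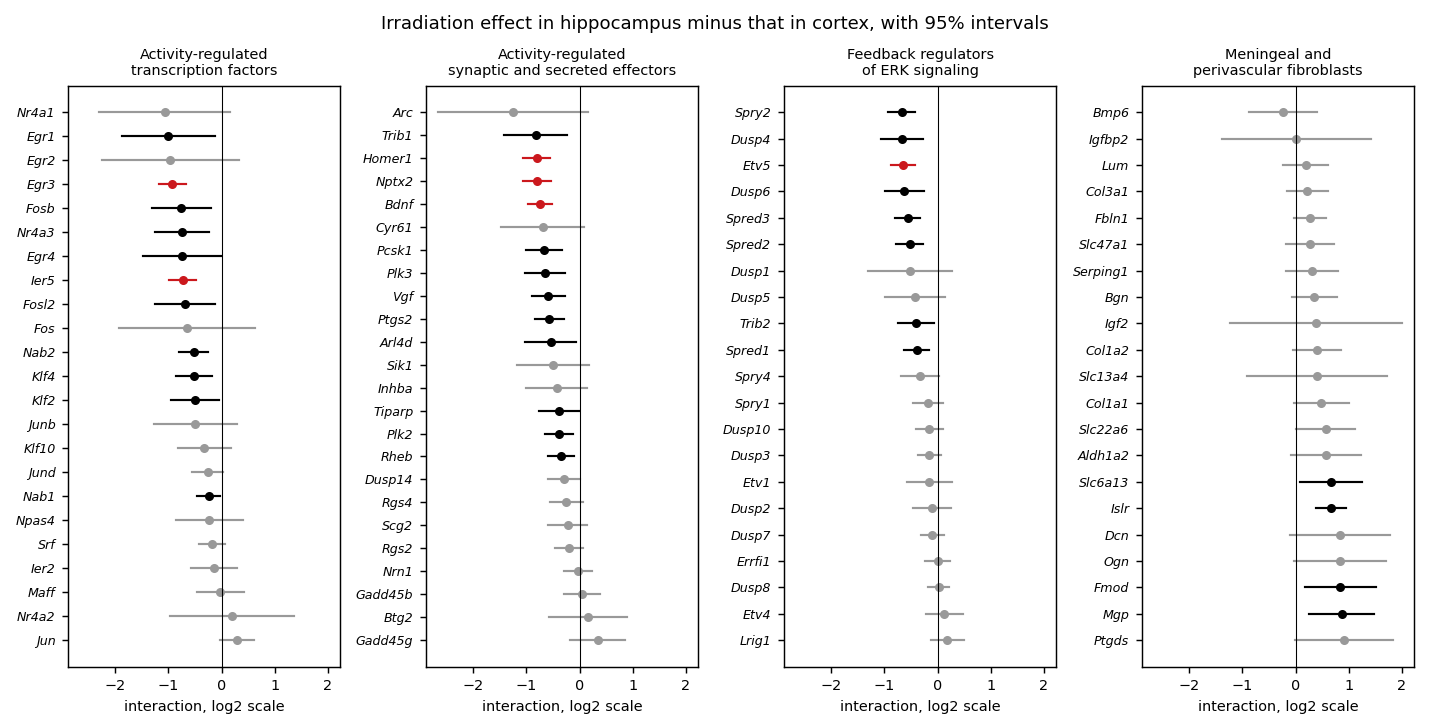
Interaction (hippocampus effect minus cortex effect, log2 scale) of every tested member of 4 gene lists, with 95% intervals from limma, in red for an adjusted p under 0.05, black for an unadjusted p under 0.05 and grey otherwise. Nearly all points of the first 3 lists lie left of 0, with 21 of 23, 21 of 24 and 17 of 21 below 0, and 20 of the 21 meningeal and perivascular fibroblast genes lie right of 0.

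Clock genes included members that responded alike and members with an interaction in either direction. Of 24 tested, 10 had an unadjusted interaction p under 0.05, 6 lower in the hippocampus and 4 higher, against 5.58% and 4.71% of all genes, and 0 an adjusted p under 0.05 by limma. With 1 library left out, the lower count was between 4, without hippocampus Con 2, and 8, and the higher count between 2 and 4. It was 2 without cortex Con 1, cortex Con 3, cortex IR 3, hippocampus Con 1 or hippocampus IR 3. The averaged effect had an adjusted p under 0.05 for 9 of the 24, 4 up and 5 down, against 1.34% and 0.597% of all genes, and 6 of the 24 were alike. *Dbp*, a clock output factor, was 51.3, 45.4 and 48.4 FPKM in cortex Con and 24.1, 23.5 and 25.2 FPKM in cortex IR, and fell in the hippocampus from 26.7, 24.7 and 31.3 to 14.2, 15.8 and 16.2 FPKM. Con and IR did not overlap in either region, and the interaction was 0.17 (interval -0.08 to 0.42). *Nfil3*, a repressor that binds the same sites as DBP, rose from 3.63, 4.18 and 4.14 to 6.33, 6.31 and 7.04 FPKM in the cortex and from 3.39, 4.05 and 3.34 to 5.598, 4.75 and 5.47 FPKM in the hippocampus. The interval of its interaction was -0.42 to 0.12. *Usp2*, a deubiquitinase gene under clock control, had effects of -0.52 and -0.39, and *Bhlhe41*, a repressor gene of the clock, of -0.36 and -0.38 in the cortex and the hippocampus. *Usp2* and *Bhlhe41* were alike with averaged adjusted p values of 0.00765 and 0.03299 from limma.

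Of the 10 clock genes with an unadjusted interaction p under 0.05, 6 are described here. *Per2*, a core repressor, rose in the cortex from 5.77, 6.28 and 6.57 to 11.3, 10.5 and 10.5 FPKM. Its hippocampal libraries were 6.71, 7.12 and 7.56 FPKM in Con and 8.39, 6.48 and 9.01 FPKM in IR, with overlap (interaction -0.58, interval -0.87 to -0.28, adjusted p = 0.1998). *Cry1*, its partner, rose in the cortex from 5.298, 5.78 and 5.36 to 8.44, 7.24 and 7.03 FPKM and was 4.48, 4.47 and 4.62 FPKM in hippocampus Con and 4.79, 4.52 and 4.88 FPKM in hippocampus IR. *Cry1* and *Arntl*, the gene of BMAL1, had interactions of -0.35 and -0.23 with unadjusted p values of 0.00538 and 0.0301 (limma). Both intervals were inside 1.5-fold, so both genes count as alike by that rule, although *Cry1* rose mainly in the cortex. *Nr1d1*, the gene of the repressor REV-ERB alpha, fell in the cortex from 70.2, 66.2 and 76.4 to 41.9, 49.4 and 48.97 FPKM and was 38.9, 36.99 and 49.2 FPKM in hippocampus Con and 35.6, 36.2 and 37.6 FPKM in hippocampus IR (interaction 0.42, adjusted p = 0.357). *Ciart*, a repressor of CLOCK and BMAL1, fell in both regions, from 13.9, 10.9 and 13.5 to 6.104, 6.92 and 6.75 FPKM and from 5.87, 6.32 and 6.25 to 3.29, 4.31 and 4.34 FPKM. Its fall of -0.85 in the cortex against -0.53 in the hippocampus gave an interaction of 0.32 (interval 0.01 to 0.63). *Tef*, a factor related to DBP, was 94.5, 92.1 and 96.9 FPKM in cortex Con and 93.7, 89.2 and 93.1 FPKM in cortex IR, with overlap. It rose in the hippocampus from 75.2, 80.3 and 83.6 to 98.5, 96.3 and 101 FPKM (effect 0.30, adjusted p = 0.0373, interaction 0.34, interaction adjusted p = 0.184). *Usp2*, *Bhlhe41*, *Arntl* and *Nr1d1* were chosen after their values were seen.

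The E-box CACGTG, the site of CLOCK and BMAL1, is palindromic and was found in 6 of 28 promoter windows of the clock list (21.4%) and in 1134 of 14088 windows of all tested genes (8.05%). It is shown for a gene that fell in both regions (*Ciart*), one that rose in the cortex (*Cry1*) and one that rose in the hippocampus (*Tef*), in the same layout, with the E-box in capitals.
*Ciart* (chr3:95882255-95882356, minus strand): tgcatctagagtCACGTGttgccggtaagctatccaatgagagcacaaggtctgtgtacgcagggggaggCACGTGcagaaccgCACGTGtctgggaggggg
*Cry1* (chr10:85185097-85185126, minus strand): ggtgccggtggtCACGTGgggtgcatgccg
*Tef* (chr15:81802534-81802563, plus strand): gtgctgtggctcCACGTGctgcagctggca
The *Ciart* window holds 3 E-boxes, which begin 116, 58 and 44 bases before the gene start.

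Of the p53 targets, *Cdkn1a* responded and did so alike. It was 5.67, 6.32 and 6.03 FPKM in cortex Con and 14.8, 12.7 and 16.8 FPKM in cortex IR, and 2.27, 2.09 and 2.003 FPKM in hippocampus Con and 6.25, 6.06 and 6.23 FPKM in hippocampus IR. The effect was 1.16 in the cortex against 1.202 in the hippocampus, although the cortex level was higher in both groups, and the interval of the interaction was -0.23 to 0.31. It was the only one of 27 p53 targets tested with an averaged effect at an adjusted p under 0.05 (1.18, adjusted p = 9.77e-07, limma). Over the 27 genes the median effects were 0.07 in the cortex against 0.02 in the hippocampus, and 22 of the 27 interaction intervals were inside 1.5-fold, against 80% of all genes. *Sesn1*, a stress-induced regulator of mTORC1, had an interaction of 0.23 (interval 0.03 to 0.43). Of 32 genes of DNA repair and the damage checkpoint, 0 had an adjusted p under 0.05 by limma in either region (unadjusted, 1 up and 3 down in the cortex, against 6.81% and 4.69% of all genes, and 2 up and 2 down in the hippocampus, against 8.95% and 9.68%) and 30 had an interval inside 1.5-fold. *Ogg1*, which excises oxidized guanine, was the member with the smallest interaction p. It was 4.28, 3.72 and 3.68 FPKM in cortex Con and 2.92, 2.82 and 2.62 FPKM in cortex IR, and 3.75, 3.63 and 4.15 FPKM in hippocampus Con and 4.06, 4.01 and 4.44 FPKM in hippocampus IR (interaction 0.47, adjusted p = 0.203).

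The 8 genes with an adjusted p under 0.05 in both regions were *Ccl12*, *Cdkn1a*, *Nfil3*, *Otub2*, *Plat* and *Sgsm1*, which rose, and *Ciart* and *Dbp*, which fell. *Otub2*, a deubiquitinase gene, rose from 8.96, 8.55 and 9.38 to 14.7, 12.4 and 13.7 FPKM in the cortex and from 13.5, 14.6 and 15.5 to 20.3, 18.8 and 18.7 FPKM in the hippocampus. *Sgsm1*, a regulator of RAB GTPases, rose from 20.7, 22.5 and 22.4 to 34.3, 31.5 and 33.1 FPKM in the cortex and from 16.3, 17.2 and 18.1 to 23.6, 21.9 and 21.6 FPKM in the hippocampus. *Plat*, the gene of tissue plasminogen activator, had effects of 0.38 and 0.40 (interval of the interaction -0.20 to 0.23). *Ccl12*, a chemokine gene, was between 0 and 0.345 FPKM in the 6 Con libraries and between 0.768 and 1.95 FPKM in the 6 IR libraries, with an interaction interval of -0.59 to 0.66 that is wider than 1.5-fold at this level. It passed the filter of 0.5 FPKM through its IR libraries only, so its place among the 8 genes is a description and no support. Lower-level genes among the 12 alike genes with the largest averaged effects were *Adam8*, a metalloprotease gene, at 0.837, 0.703 and 0.758 and 1.39, 1.05 and 1.51 FPKM in the cortex and 1.06, 0.998 and 1.39 and 2.79, 1.797 and 2.02 FPKM in the hippocampus, and *Cfp*, the gene of complement properdin. *Cfp* was 3.63, 5.07 and 5.04 and 7.92, 6.28 and 6.99 FPKM in cortex Con and IR, and 3.59, 3.33 and 4.66 and 7.78, 4.396 and 5.999 FPKM in hippocampus Con and IR, where the libraries overlapped. *Gm5176*, *Noxred1*, *Tm6sf2*, *Tmc4* and *Ankrd23* completed these 12, with averaged effects between 0.46 and 0.50. In this order, they lost an adjusted p under 0.05 for that effect in 11, 10, 11, 8 and 4 of the 12 fits with a library left out. With a pseudocount of 0.1 FPKM the averaged effects of *Gm5176*, *Noxred1*, *Tm6sf2*, *Tmc4* and *Ankrd23* were 1.01, 1.19, 0.999, 0.71 and 0.73, and that of *Adam8* was 0.79. *Plat* and *Ccl12* were chosen after their values were seen.

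**Figure D4:**
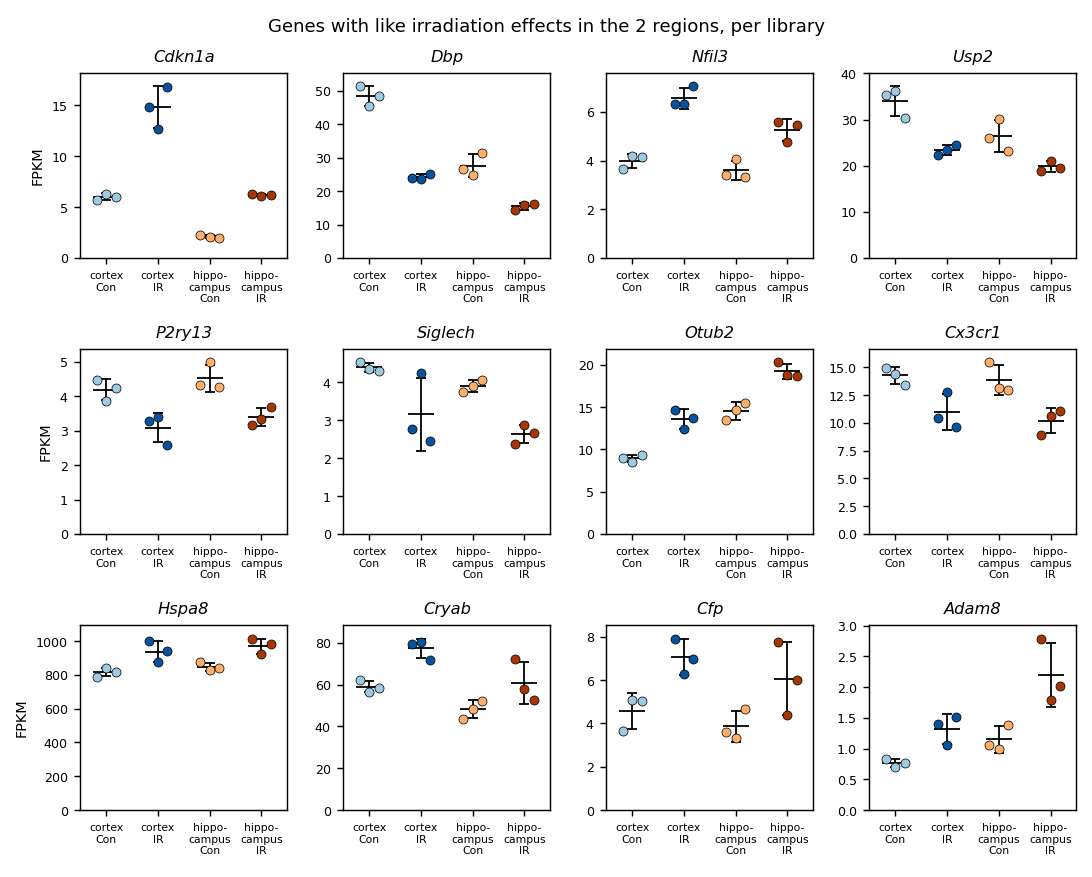
FPKM of 12 genes whose irradiation effect was alike in both regions, with a point for each library (light blue, cortex Con; dark blue, cortex IR; light orange, hippocampus Con; brown, hippocampus IR) and a line with bars for the mean and SD of the 3 libraries of a group. *Cdkn1a* and *Nfil3* are higher and *Dbp* and *Usp2* lower in every IR library of either region, while cortex IR 2 lies near Con for *Siglech*.

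Of 23 homeostatic microglia genes tested, 0 had an unadjusted interaction p under 0.05 in either direction, against 5.58% lower and 4.71% higher over all genes. By the averaged effect 6 of them fell at an adjusted p under 0.05 (limma), against 0.597% of all genes. The median effect was -0.11 in the cortex against -0.26 in the hippocampus, the summed FPKM of the list being 231 to 249 in cortex Con, 187 to 236 in cortex IR, 241 to 264 in hippocampus Con and 203 to 205 in hippocampus IR. Cortex IR 2 held 236 FPKM, against 187 and 189 FPKM in the other cortex IR libraries. Without it, 2 of the 23 genes were higher in the hippocampus by an unadjusted interaction p, against 4.11% of all genes in that fit, and the median interaction was 0.035 in place of -0.06. Without hippocampus Con 3 the higher count was also 2, against 7.68% of all genes. *Csf1r*, the receptor on which microglia depend, was 21.1, 20.4 and 19.8 FPKM in cortex Con and 8.84, 18.03 and 8.89 FPKM in cortex IR. Levels in the hippocampus were 22.3, 20.5 and 24.1 FPKM in Con and 12.03, 11.7 and 12.2 FPKM in IR. All IR libraries were below all Con libraries of the same region, but cortex IR 2 (18.03 FPKM) was near Con, and the interval of the interaction, -0.64 to 0.57, was wider than 1.5-fold. *Cx3cr1*, the fractalkine receptor gene, had effects of -0.36 and -0.41, *Siglech*, a microglial lectin gene, of -0.40 and -0.43, and *P2ry13*, a purinergic receptor gene, of -0.35 and -0.33 in the cortex and the hippocampus. These 3 genes count as alike. The 4 microglia genes named here were chosen after their values were seen. Beside the interval of 0.33 to 0.67 for the interaction of the ligand gene *Il34*, that of *Csf1r* is wide, so a difference between regions of the size of that in *Il34* was not detectable for the receptor gene.

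Of 27 genes of the endoplasmic reticulum chaperones and the unfolded protein response, 2 rose by the averaged effect at an adjusted p under 0.05 (limma), against 1.34% of all genes. IR 1 of each region was the highest for *Hspa5*, *Pdia4* and *Xbp1*. By an unadjusted interaction p under 0.05, 0 of the 27 were lower and 1 was higher in the hippocampus, against 5.58% and 4.71% of all genes, with median effects of 0.16 in the cortex against 0.21 in the hippocampus. Without hippocampus Con 3 these counts were 5 and 3, against 12.1% and 7.68% of all genes in that fit, and without hippocampus IR 1 they were 3 and 1. *Hspa5*, the gene of the chaperone BiP, was 70.8, 76.97 and 75.8 FPKM in cortex Con and 146, 99.96 and 107 FPKM in cortex IR, the highest being IR 1. In the hippocampus it was 85.3, 86.2 and 72.5 FPKM in Con and 166, 94.8 and 108 FPKM in IR, IR 1 again being the highest. *Hspa5* rose on average over the regions (0.59, adjusted p = 0.0459, limma), as did *Xbp1*, a transcription factor of this response (0.44, adjusted p = 0.0457). With 1 library left out, both calls were lost except without hippocampus Con 3 or hippocampus IR 2. Without hippocampus IR 1 the averaged effects of *Hspa5* and *Xbp1* were 0.48 and 0.34, and neither passed. The interval of the interaction was -0.66 to 0.49 for *Hspa5* and -0.29 to 0.58 for *Xbp1*, of which *Xbp1* counts as alike. *Pdia4*, a disulfide isomerase gene, had effects of 0.61 and 0.39 and did not pass (averaged adjusted p = 0.0663). Among 22 cytosolic heat shock genes, 4 rose by the averaged effect, against the same 1.34%. *Hspa8*, the constitutive HSC70 gene, was 790.4, 843 and 818 and 998, 878 and 939 FPKM in cortex Con and IR, and 875, 830.3 and 839 and 1010.1, 923 and 980.3 FPKM in hippocampus Con and IR. *Hspa8*, *Cryab*, a small heat shock protein gene, and *Hsf1*, the gene of the factor that induces them, were alike, with averaged effects of 0.20, 0.35 and 0.27. *Dnajb5*, a cochaperone gene, was 40.1, 45.9 and 46.7 FPKM in cortex Con and 71.4, 67.8 and 73.3 FPKM in cortex IR. It was 49.6, 45.6 and 49.8 FPKM in hippocampus Con and 49.8, 49.7 and 62.5 FPKM in hippocampus IR (interaction -0.52, unadjusted p = 0.001102, adjusted p = 0.203). *Dnajb5* and *Dnaja1*, another cochaperone gene (interaction -0.37), were the 2 of the 22 that were lower by an unadjusted p. *Hspb1*, which the study also tested by qRT-PCR, had an interaction of 0.37 with an interval of -0.48 to 1.22. *Xbp1*, *Pdia4*, *Hspa8*, *Cryab* and *Hsf1* were chosen after their values were seen. Without hippocampus Con 3, 8 of the 22 cytosolic genes were lower and 1 was higher in the hippocampus by an unadjusted p under 0.05, where 12.1% and 7.68% of all genes were. With it the counts were 2 and 0, against 5.58% and 4.71%, and with any other library left out the lower count was between 1 and 4.

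Hippocampus Con 3 was nearer to IR than Con 1 and Con 2 were for *Cirbp*, *Rbm3* and *Srsf5*. *Cirbp*, a cold-inducible RNA-binding protein gene, was 95.6, 74.5 and 52.6 FPKM in hippocampus Con and 24.7, 40.3 and 36.8 FPKM in hippocampus IR, Con 3 being the lowest Con. Its cortex values of 67.99, 73.2 and 65.7 FPKM in Con and 34.7, 45.7 and 45.5 FPKM in IR were also separate, and the interval of the interaction was -1.06 to 0.29. *Rbm3*, its relative, was 81.1, 75.7 and 76.7 and 47.8, 63.8 and 58.03 FPKM in cortex Con and IR, and 103, 96.4 and 79.2 and 38.4, 58.97 and 56.2 FPKM in hippocampus Con and IR. Both fell on average over the regions (adjusted p = 0.0225 for *Cirbp* and 0.0159 for *Rbm3*, limma). *Srsf5*, a splicing factor gene, was 251, 218 and 136 FPKM in hippocampus Con and 113, 136 and 135 FPKM in hippocampus IR, with Con 3 at the level of IR 2 and IR 3 (interaction -0.54, interval -1.06 to -0.02). Of 29 genes of the mitochondrial respiratory chain, 3 were lower and 2 higher in the hippocampus by an unadjusted interaction p under 0.05, against 5.58% and 4.71% of all genes. Without Con 3 the counts were 13 and 2, against 12.1% and 7.68% of all genes in that fit, while without Con 1 or Con 2 the lower count was 0. Of 36 cytosolic ribosomal protein genes, the counts were 1 and 0 with Con 3, and 9 and 4 without it, against the same shares. What sets this library apart was not tested.

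Several genes rose or fell in the hippocampus with overlapping groups in the cortex, without an adjusted interaction p under 0.05. *Man1a*, a Golgi mannosidase gene and a marker of hippocampal pyramidal cells here, was 4.58, 5.36 and 5.58 FPKM in cortex Con and 5.42, 5.72 and 5.62 FPKM in cortex IR. It fell in the hippocampus from 18.02, 15.4 and 17.6 to 9.38, 9.94 and 11.9 FPKM (effect -0.66, adjusted p = 0.0195, interaction -0.76). *Cacng3*, an auxiliary subunit of AMPA receptors, was 68.7, 64.98 and 62.2 FPKM in cortex Con and 68.3, 66.01 and 62.7 FPKM in cortex IR. In the hippocampus it fell from 34.9, 33.1 and 36.8 to 26.8, 25.9 and 29.3 FPKM (adjusted p = 0.04601, interaction -0.35). *Gria3*, an AMPA receptor subunit gene, had an interaction of -0.27 (interval -0.42 to -0.11), with hippocampal values of 57.2, 56.3 and 55.9 FPKM in Con and 46.997, 47.6 and 49.8 FPKM in IR. Among 27 genes of glutamate receptors and their partners, 3 were lower and 2 higher by an unadjusted p under 0.05, against 5.58% and 4.71% of all genes, and 24 intervals were inside 1.5-fold, against 80%. *Bst2*, an interferon-induced tetherin gene, was 4.22, 3.06 and 2.79 FPKM in cortex Con and 4.16, 3.27 and 3.201 FPKM in cortex IR. It rose in the hippocampus from 3.56, 2.81 and 2.403 to 5.89, 6.74 and 5.36 FPKM (adjusted p = 0.0361, interaction 0.77, interaction adjusted p = 0.227). Of 26 interferon-response and antigen-presentation genes, *Bst2* and *Psmb8*, an immunoproteasome subunit gene, were higher in the hippocampus by an unadjusted interaction p under 0.05 and 0 were lower, against 4.71% and 5.58% of all genes, with a median interaction of 0.06. *Irf9*, part of the interferon-induced factor ISGF3 and chosen after its values were seen, rose by the averaged effect (0.47, adjusted p = 0.0223), with an interval of the interaction of -0.10 to 0.63. This rise lost an adjusted p under 0.05 in 3 of the 12 fits with a library left out. *Lyz2*, a lysozyme gene of myeloid cells, was 4.399, 2.99 and 3.72 FPKM in cortex Con and 4.47, 4.14 and 5.02 FPKM in cortex IR. In the hippocampus it rose from 2.75, 1.37 and 2.58 to 10.1, 5.91 and 5.24 FPKM (adjusted p = 0.0361), with an interaction of 1.06 (interval 0.40 to 1.72, adjusted p = 0.297).

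The markers of other cell types included lists whose interaction was mostly of one sign. Of 21 genes of meningeal and perivascular fibroblasts, 20 had an interaction above 0, with a median of 0.41, and 4 were higher in the hippocampus by an unadjusted p under 0.05 against 4.71% of all genes. The median effect was -0.22 in the cortex against 0.28 in the hippocampus, and 0 of the 21 had an adjusted p under 0.05 by limma in either region. By an unadjusted p, 0 rose and 1 fell in the cortex, against 6.81% and 4.69% of all genes. In the hippocampus 6 rose and 1 fell, against 8.95% and 9.68%. Summed FPKM of these genes was 962 to 1099 in cortex Con, 705 to 963 in cortex IR, 258 to 385 in hippocampus Con and 360 to 558 in hippocampus IR. *Islr* was 7.44, 6.41 and 7.301 FPKM in cortex Con and 4.89, 5.69 and 6.21 FPKM in cortex IR, against 4.33, 4.83 and 5.26 FPKM in hippocampus Con and 6.64, 6.85 and 6.13 FPKM in hippocampus IR. *Islr* was thus separate in opposite directions (interaction 0.67, unadjusted p = 0.000173), and *Mgp*, the matrix Gla protein gene, and *Fmod*, the gene of fibromodulin, had interactions of 0.87 and 0.84. Without hippocampus Con 3, 12 of the 21 were higher by an unadjusted p, against 7.68% of all genes in that fit, and the median interaction was 0.53. Without cortex IR 2 or hippocampus IR 1, 9 and 10 of the 21 were higher, against 4.11% and 4.38% of all genes. Over all fits with a library left out the count was between 3 and 12. Whether the share of meningeal tissue in the samples has a part in any interaction above was not tested. Choroid plexus genes were high in 3 libraries of 3 groups. The list summed to between 6.47 and 37.5 FPKM in cortex Con and between 28.8 and 1139 FPKM in hippocampus Con, cortex IR 2, hippocampus Con 2 and hippocampus IR 1 holding 464, 1139 and 1747 FPKM. An unadjusted interaction p under 0.05 by limma was found for 0 of 18 tested, against 5.58% lower and 4.71% higher over all genes, with a median interaction of -0.31. The median ran from -1.01 without hippocampus IR 1 to 0.35 without hippocampus Con 2.

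Myelin genes had a lower effect in the hippocampus in 21 of 23 genes tested, with median effects of 0.19 in the cortex against -0.08 in the hippocampus and a median interaction of -0.26. An unadjusted interaction p under 0.05 was found for 6, all lower in the hippocampus, against 5.58% of all genes, and this count was 1 without cortex Con 3, hippocampus Con 1 or hippocampus IR 3, 2 without cortex IR 2, and 9 without hippocampus Con 2 or hippocampus IR 1. *Mog*, a myelin surface protein gene, had an interaction of -0.36 and *Ermn*, a cytoskeletal gene of oligodendrocytes, of -0.45. Of 24 genes of cholesterol synthesis and uptake, 9 were higher and 1 was lower in the hippocampus by an unadjusted interaction p under 0.05, against 4.71% and 5.58% of all genes, with a median interaction of 0.14. The higher count was between 5, without hippocampus IR 3, and 9 with each library left out. *Dhcr7*, the last enzyme of cholesterol synthesis, was 10.4, 11.3 and 10.7 FPKM in cortex Con and 9.296, 9.498 and 10.2 FPKM in cortex IR, and 9.48, 10.005 and 12.1 FPKM in hippocampus Con and 12.5, 13.2 and 12.9 FPKM in hippocampus IR, separate in opposite directions (interaction 0.42, unadjusted p = 0.00259). *Sqle*, squalene epoxidase, chosen after its values were seen, had an interaction of 0.28. Of 25 endothelial genes, *Klf2* and *Klf4*, factors induced by blood flow that are also immediate early genes, and *Slc2a1*, the glucose transporter of the blood-brain barrier, were lower in the hippocampus by an unadjusted p, against 5.58% of all genes, and 23 intervals were inside 1.5-fold, against 80%. *Cldn5*, the tight junction gene of brain endothelium, and *Eng*, the gene of endoglin, both chosen after their values were seen, rose on average and were alike, with effects of 0.46 and 0.45 for *Cldn5* and of 0.32 and 0.34 for *Eng* in the cortex and the hippocampus.

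**Figure D5:**
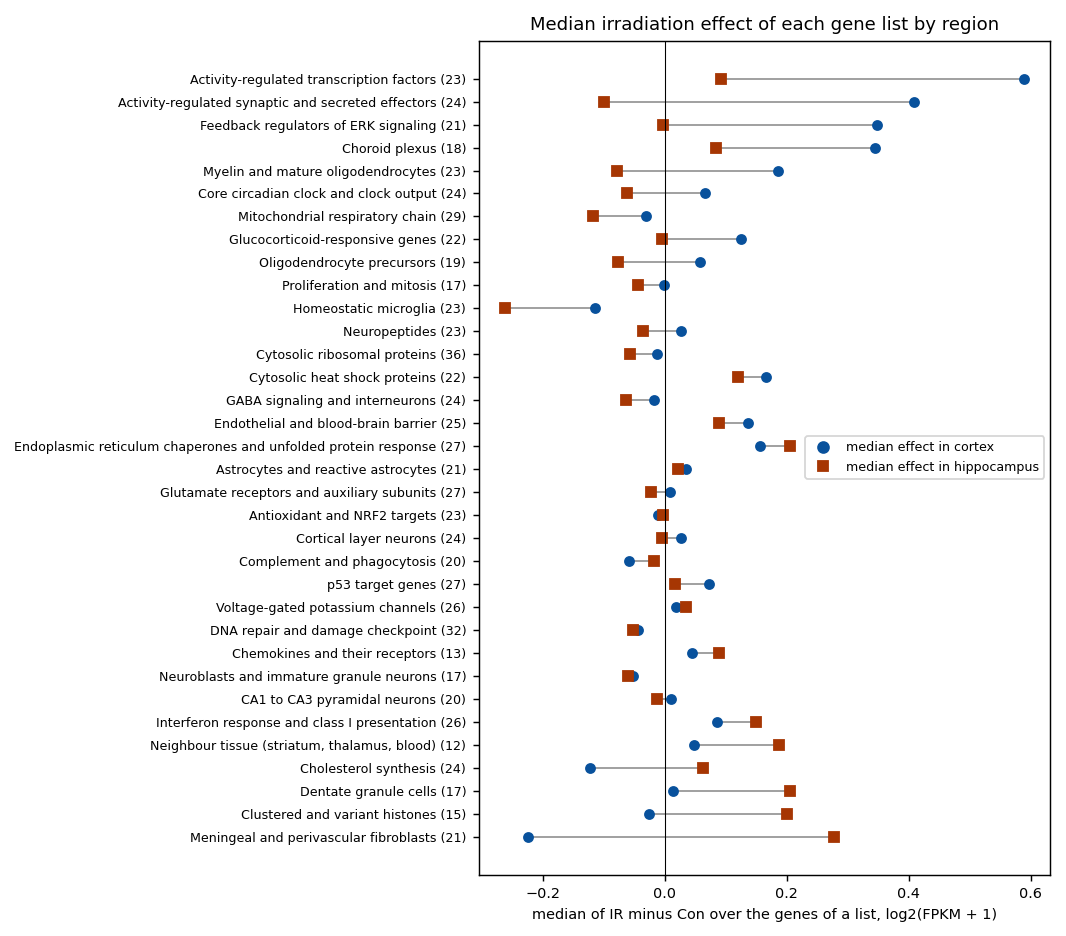
Median irradiation effect over the tested genes of the 34 lists with at least 10 tested genes (number tested in brackets) in the cortex (blue circles) and the hippocampus (brown squares), as IR minus Con of log2(FPKM + 1), in the order of the median interaction. The widest gaps among the lists drawn are those of the lists of activity-regulated and ERK feedback genes, with cortex medians of 0.59, 0.41 and 0.35, and of the fibroblast genes, with -0.22 in the cortex against 0.28 in the hippocampus.

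For 4 further lists the share of narrow intervals was between 76.9% and 91.7%. The interval of the interaction was inside 1.5-fold for 22 of 24 genes of GABA signaling, for 15 of 17 genes of neuroblasts and immature granule neurons, for 20 of 26 voltage-gated potassium channels and for 19 of 23 antioxidant genes, against 80% of all genes. For other lists it was lower, such as 39.1% of neuropeptide genes and 47.1% of dentate granule cell genes. Of 17 dentate granule cell genes, 3 were higher in the hippocampus by an unadjusted p, against 4.71% of all genes, with a median interaction of 0.16, which was 0.029 without hippocampus Con 1. The count was 1 without hippocampus Con 1 or IR 2 and 7 without hippocampus Con 2. *Il16* among them was 9.08, 11.4 and 10.7 FPKM in hippocampus Con and 12.4, 13.8 and 14.2 FPKM in hippocampus IR, against 0.497, 0.555 and 0.518 FPKM and 0.4802, 0.462 and 0.426 FPKM in the cortex (interaction 0.41, adjusted p = 0.301).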

How the data were processed

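RNA-seq was performed on cortex and hippocampus of irradiated (IR) and sham-treated (Con) mice, 3 libraries per group. The authors trimmed the reads, mapped them with TopHat and estimated the deposited FPKM values with Cufflinks, with a geometric normalization; the submitters' processing notes name the build mm10, and the annotation is not given in the sources used here. RNA extraction is described differently in the labels (Trizol) and in the methods (an RNeasy kit), which was not settled. The labels name total RNA, from which the methods select poly(A) RNA for the libraries. FPKM holds no read counts, so depth in reads is unknown and no counting interval is given.

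Genes that reached 0.5 FPKM in 3 or more of 12 libraries were tested on log2(FPKM + 1) in a single limma 3.58.1 fit (R 4.3.3, trend and robust prior, 8 residual degrees of freedom) with a mean per group and contrasts for each region, their average and their difference, with Benjamini-Hochberg adjustment over all genes tested. A gene was called alike when the averaged effect had an adjusted p under 0.05 and the 95% interval of the interaction was inside 1.5-fold. An exact permutation test of 3 against 3 libraries cannot reach a p under 0.05, so none is given.

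Genes were named by rule: every gene with an adjusted interaction p under 0.05, the 12 alike genes with the largest averaged effect, in each list the 3 members with the smallest interaction p, and *Cdkn1a*, *Ciart*, *Fos*, *Hspa5*, *Hspb1* and *Klf10*. The study tested the last of these among other genes by qRT-PCR and singled them out because cortex and hippocampus gave the same pattern. Members and lists were chosen with earlier results of these data known. Values of some single genes are not reported here. Alternatives were no filter, a pseudocount of 0.1, a minimum of 1 FPKM in every library, no trend or robust prior, quantile normalization within region, median ratio scaling, array weights, replicate blocks and leaving out each library. Python 3.11.15 and matplotlib 3.10.9 made the figures, and promoter windows are those of RefSeq (GRCm38.p6), found for 10987 of the genes tested.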

Additional observations from a re-analysis of the deposited data

Results flagged for a closer look

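The irradiation effect differed between hippocampus and cortex for 12 genes by the test of the difference itself (limma, adjusted p under 0.05 over all genes tested). Transcription regulators among them were *Egr3* (-0.93 on the log2 scale, hippocampus minus cortex), *Ier5* (-0.73), *Etv5* (-0.65) and *Mycl* (0.73). Genes of synapses and neuronal signaling were *Homer1* (-0.81), *Nptx2* (-0.80), *Bdnf* (-0.74), *Ephb3* (-0.62) and *Synj2* (-0.55). *Galnt9* had a difference of -0.77, the transcript *AI414108* of -0.69 and the CSF1R ligand gene *Il34* of 0.50. The adjusted p values were between 0.0299 and 0.0364. None of the genes passed with no trend or robust prior, with a replicate block, or in several of the fits with a library left out.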

How the results depend on the processing

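The number of genes with an adjusted interaction p under 0.05, 12 as reported, was 7 with no filter, 19 with at least 1 FPKM in every library, 0 with no trend or robust prior (limma; 1477 at an unadjusted p under 0.05), 31 with array weights, and 0 to 479 with each library left out. The 1500 genes with an unadjusted p became 2547 with array weights and 1078 to 2885 with a library left out. Without the filter, 169 genes had an averaged effect, 123 were alike and 8 had an effect in the hippocampus, and with array weights the numbers were 811, 633 and 770, with 211 in the cortex. No trend or robust prior gave 22 in the hippocampus. With each library left out, the averaged effect was found for 27 to 1348 genes, alike for 14 to 897, the cortex effect for 25 to 102 and the hippocampus effect for 5 to 1792, the highest each time without hippocampus Con 3. All 12 genes kept their direction in every alternative. With a library left out, the interaction turned its sign for *Sostdc1* (-1.15 to 0.12) and *Clic6* (-1.66 to 0.23), both without hippocampus Con 2, and for *Btg2* (-0.054 to 0.47), without cortex Con 2. The cause of these changes was not tested.

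Replicate numbers are shared between groups, but over all genes same-numbered libraries of both regions had low correlations of their deviations (0.03, -0.03 and 0.15 in Con and -0.13, -0.02 and 0.13 in IR), so the numbers were not taken as a pairing. For *Egr1*, *Fos*, *Nr4a1* and *Arc*, Con 1 was the lowest library in both regions, and for *Hspa5*, *Pdia4* and *Xbp1* IR 1 was the highest in both. Whether same-numbered libraries share a mouse is not given. A replicate block by mouse gave 0 genes with an adjusted interaction p under 0.05 (limma; 1497 unadjusted), and a replicate block by number gave 0 (1248 unadjusted), with 32 averaged, 15 alike, 33 cortex and 3 hippocampus effects. With the block by mouse, the activity-regulated transcription factors had 17 genes lower and 1 higher by an unadjusted interaction p, against 11 and 0 without it, the synaptic list 16 against 12 lower, the myelin list 11 against 6 lower, and the fibroblast list 11 against 4 higher.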

Other observations

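*Snord15b*, a small nucleolar RNA gene, was listed at 0 in all 3 hippocampus Con libraries and at 14.5, 15.1 and 22.9 FPKM in hippocampus IR. In the cortex it was 49.2, 32.2 and 6.81 FPKM in Con and 14.1, 31.0 and 21.4 FPKM in IR, with overlap. No fold is given against a group listed at 0. The low values were not particular to *Snord15b*. The 13 small nucleolar RNA genes listed summed to 0 FPKM in hippocampus Con 1 and Con 2 and to 9.69 FPKM in Con 3. Their sum was 30.2 to 60.7 FPKM in hippocampus IR and 65.6 to 176 FPKM over the cortex libraries. What sets these RNAs apart in hippocampus Con was not tested.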
